A study of Mus musculus with 9 samples.

Results

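The 10 genes described here encode proteins that sit in the extracellular matrix without forming its main fibres. Of these, 5 are matricellular proteins (Tnc, tenascin-C; Postn, periostin; Thbs1 and Thbs2, thrombospondins; Sparc, osteonectin), and 5 are small leucine-rich proteoglycans or glycoproteins (Dcn, decorin; Lum, lumican; Bgn, biglycan; Ogn, osteoglycin; Prelp). They were taken from a list of gene symbols that was chosen with earlier results of these data known. Counts of the 10 genes set beside shares of all genes are therefore a description. Each gene was represented by 1 probe set, namely the one with that symbol alone and the highest mean over all arrays. All 10 were measured, out of 22180 genes. Expression was measured on 9 microarrays of total RNA from hindlimb skeletal muscle of mice, with no treatment named, 3 at postnatal day 2 (P2), 3 at P7 and 3 at P14. The strain is given as mixed and the arrays of an age as biological replicates, but the labels leave unstated how many animals went into each. The comparisons follow muscle over its first 14 days after birth. Values are log2 intensities, so a difference of 1 is a 2-fold change, and a level is comparable between arrays for the same gene but not between genes.

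Matricellular proteins bind cells, collagen and growth factors and alter how cells attach and signal, and they are typically abundant in developing or injured tissue and sparse in resting adult tissue. Small leucine-rich proteoglycans have a curved protein core of leucine-rich repeats that binds collagen fibrils, and several carry glycosaminoglycan chains. They regulate fibril width and spacing, and decorin and biglycan also bind transforming growth factor beta. In skeletal muscle these genes are transcribed mainly by fibroblasts and related interstitial cells, by tendon cells and by cells of vessel walls.

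The deposited, already processed values had array medians between 3.29 and 3.36. Correlations over all genes between arrays of the same age were lowest at P2 (0.953–0.964), then P7 (0.967–0.974) and P14 (0.981–0.984). Genes of 4 sensory receptor families that muscle has little reason to express served as a background: 95% of these 1443 genes averaged below 3.23, called the receptor level here. All 10 genes lay above it at every age. The labelled tissue carried its markers, since all 12 muscle fibre genes measured were above the receptor level at every age. Their summed intensity on the log2 scale covered 13.48–13.75 (P2), 14.08–14.21 (P7) and 14.35–14.39 (P14). At P2 the fibre genes differed between arrays by more than this sum shows. Their mean log2 intensity was 8.54, 9.25 and 9.41 in P2 replicates 1 to 3. On these arrays Myh4 had 5.33, 8.85 and 10.26 and Myh1 had 5.19, 6.64 and 7.71, whereas Myh8 had 10.88, 10.89 and 10.68. The part of this difference in the changes of the 10 genes was not tested. Among 5 epidermal markers, 3 were at or below the receptor level at P2, 4 at P7 and 3 at P14, not the same genes at each age. Their log2 summed intensity covered 5.49–5.57 (P2), 5.20–5.64 (P7) and 5.50–5.98 (P14). Krt10 was higher at P14 than at P2 (limma, adjusted p below 0.05), a result lost without any of 3 arrays.

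Between P14 and P2, 5 of the 10 genes fell and none rose (limma, adjusted p below 0.05 over all genes). The 5 were Postn, Tnc, Thbs2 and Thbs1, all matricellular, and Bgn. Over all genes, 11% were called, 4.4% lower and 6.63% higher. That share includes many dim genes, since 65% of all genes averaged above the receptor level at any age, as all 10 did. A limma fit to these 14413 genes alone called 2884 of them, a larger share than 11%, and 6 of the 10. At an unadjusted p below 0.05, 6 of the 10 genes were lower at P14 than at P2, beside 24.3% of all genes in either direction. In a test for any change over the 3 ages, 4 of the 10 were called (Postn, Thbs2, Tnc and Thbs1), beside 8.24% of all genes. The median change of the 10 genes was -0.70, against 0.01 for all genes. Only Tnc was called lower at P7 than at P2, where 0.144% of all genes were called lower and 0.329% in either direction. Postn alone was called lower at P14 than at P7, where 0.703% of all genes were called lower, 1.72% higher and 2.43% in either direction. At an unadjusted p below 0.05 there were 5 of the 10 genes at P7 against P2 (12.8% of all genes) and 2 at P14 against P7 (14.6% of all genes), all lower. The median changes of the 10 genes were -0.35 for P7 against P2 and -0.29 for P14 against P7, beside medians of all genes of -0.006 and 0.015.

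**Figure D1:**
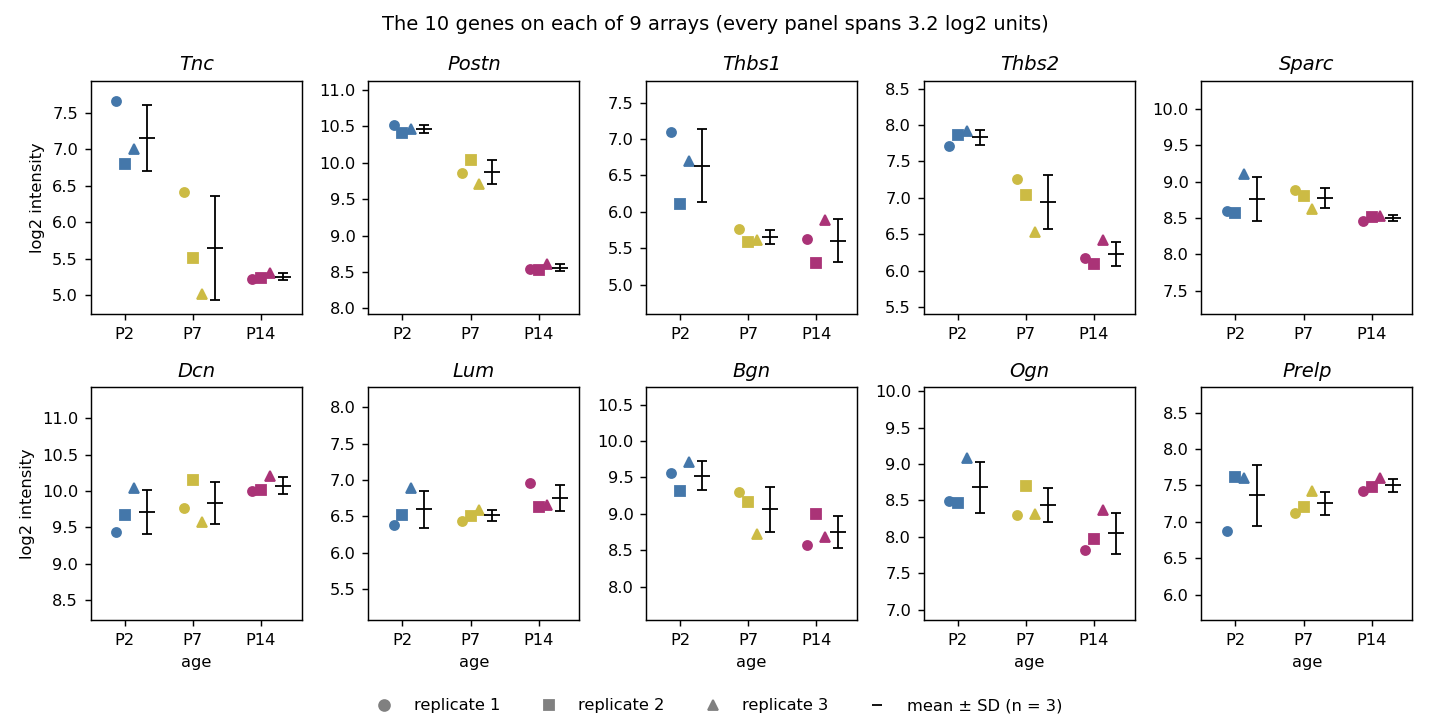
Log2 intensity of each of the 10 genes (vertical axis) on the 3 arrays at P2, P7 and P14 (horizontal axis), with points for replicates 1 to 3 and bars for the mean ± SD. Postn and Thbs2 step down at both intervals without overlap between ages, with P14 means of 8.56 and 6.23, whereas the Dcn, Lum and Prelp arrays at P14 overlap with those at P2.

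Periostin, a secreted protein that binds collagen and integrins and takes part in collagen cross-linking, had the smallest adjusted p-value of the 10 genes. Postn had 10.52, 10.41 and 10.46 at P2, 9.87, 10.04 and 9.71 at P7, and 8.54, 8.52 and 8.61 at P14. No array of one age overlapped with those of another. Postn was 3.75-fold lower at P14 than at P2 (log2 change -1.91 ± 0.16 SE, adjusted p = 3.7e-06) and 2.48-fold lower at P14 than at P7 (-1.31 ± 0.16, adjusted p = 0.00028). P7 lay below P2 by less and was not called (-0.60 ± 0.16, adjusted p = 0.125). Non-overlapping steps down at both intervals were found for Postn and Thbs2 among the 10 genes and for 1.27% of all genes.

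Tenascin-C, a large many-armed glycoprotein of embryonic and regenerating matrix, including that of myotendinous junctions, was called over the earlier interval instead. Tnc had 7.67, 6.80 and 7.00 at P2, 6.41, 5.50 and 5.01 at P7, and 5.21, 5.24 and 5.31 at P14. All P2 arrays were above all later arrays, the P7 arrays were spread widely around the P14 arrays, and the P14 arrays were nearly equal (SD 0.05, n = 3). Tnc was 3.74-fold lower at P14 than at P2 (-1.90 ± 0.30, adjusted p = 0.000874) and 2.86-fold lower at P7 than at P2 (-1.52 ± 0.30, adjusted p = 0.049). The P7 call was lost without any of 7 of the 9 arrays, with the highest adjusted p, 0.179, when P7 replicate 3 was left out. P14 against P7 was not called (-0.39 ± 0.30, adjusted p = 0.624).

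The thrombospondins THBS1 and THBS2 are secreted trimers that bind CD36, CD47 and integrins and restrain vessel growth, and THBS1 also activates latent transforming growth factor beta. Thbs2 had 7.71, 7.86 and 7.91 at P2, 7.25, 7.04 and 6.53 at P7, and 6.17, 6.09 and 6.42 at P14, with no overlap between ages. It was 3.04-fold lower at P14 than at P2 (-1.60 ± 0.20, adjusted p = 0.00012). The changes over the separate intervals were not called, at -0.89 ± 0.20 for P7 against P2 (adjusted p = 0.0693) and -0.72 ± 0.20 for P14 against P7 (adjusted p = 0.0771).

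Thbs1 had 7.10, 6.11 and 6.70 at P2, 5.77, 5.59 and 5.62 at P7, and 5.63, 5.30 and 5.89 at P14. The P2 arrays were all above the rest, and the arrays at P7 and P14 overlapped. Thbs1 was 2.04-fold lower at P14 than at P2 (-1.03 ± 0.23, adjusted p = 0.0107). P7 differed from P2 by -0.98 ± 0.23 (adjusted p = 0.092), and P14 from P7 by -0.05 ± 0.23 (adjusted p = 0.955). Without P2 replicate 1, the highest of the P2 arrays, or without P14 replicate 2, the lowest of the P14 arrays, the P14 call was lost, with adjusted p up to 0.0644.

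SPARC, a collagen-binding protein that assists fibril assembly, had the smallest change between P14 and P2 among the 5 matricellular genes. Sparc had 8.60, 8.57 and 9.10 at P2, 8.89, 8.81 and 8.62 at P7, and 8.46, 8.52 and 8.52 at P14. The P14 arrays were below all earlier arrays, but by little. The change between P14 and P2 was -0.26 ± 0.18 (95% interval -0.65 to 0.13, adjusted p = 0.423).

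The proximal promoters of the 3 genes whose lower level at P14 than at P2 was called under every alternative analysis are printed below with that of Bgn, and with that of Prelp, which was not called. RefSeq windows on GRCm38.p6, running 250 bases before to 50 bases after an annotated start, were matched for 7 of the 10 genes (Prelp, Postn, Tnc, Sparc, Ogn, Thbs2 and Bgn). Each is read 5′ to 3′ on the gene's strand, and capitals mark matches to TATANA (where N is any base, and the other strand reads TNTATA) or to CCGCCC (read on the other strand as GGGCGG). The windows are chr3:54360857-54361156 on the plus strand for the downstream of 2 Postn starts, chr4:64046887-64047186 on the minus strand for the downstream of 2 Tnc starts, chr17:14694213-14694512 on the minus strand for Thbs2, chrX:73483351-73483650 on the plus strand for Bgn and chr1:133921352-133921651 on the minus strand for Prelp.
Postn: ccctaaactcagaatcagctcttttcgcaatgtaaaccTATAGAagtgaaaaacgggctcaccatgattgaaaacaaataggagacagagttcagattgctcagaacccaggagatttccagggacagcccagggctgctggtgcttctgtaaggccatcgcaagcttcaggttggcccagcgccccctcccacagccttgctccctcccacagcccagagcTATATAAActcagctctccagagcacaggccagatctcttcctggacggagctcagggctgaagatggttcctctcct
Tnc: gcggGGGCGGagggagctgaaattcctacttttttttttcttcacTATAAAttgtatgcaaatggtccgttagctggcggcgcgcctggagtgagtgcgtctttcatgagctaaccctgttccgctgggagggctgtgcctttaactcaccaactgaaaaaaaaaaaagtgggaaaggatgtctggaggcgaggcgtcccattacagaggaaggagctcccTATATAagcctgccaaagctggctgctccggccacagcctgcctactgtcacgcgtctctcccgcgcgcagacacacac
Thbs2: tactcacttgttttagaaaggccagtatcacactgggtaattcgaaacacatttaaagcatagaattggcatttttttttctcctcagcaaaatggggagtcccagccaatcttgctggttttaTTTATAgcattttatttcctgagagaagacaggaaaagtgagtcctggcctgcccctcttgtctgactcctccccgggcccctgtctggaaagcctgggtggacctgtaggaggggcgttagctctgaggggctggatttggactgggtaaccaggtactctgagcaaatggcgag
Bgn: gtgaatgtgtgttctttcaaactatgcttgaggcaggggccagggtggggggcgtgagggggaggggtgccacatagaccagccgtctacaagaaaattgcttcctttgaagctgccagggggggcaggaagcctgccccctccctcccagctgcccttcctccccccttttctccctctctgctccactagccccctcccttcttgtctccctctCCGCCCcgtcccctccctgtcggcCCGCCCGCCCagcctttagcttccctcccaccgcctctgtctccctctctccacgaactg
Prelp: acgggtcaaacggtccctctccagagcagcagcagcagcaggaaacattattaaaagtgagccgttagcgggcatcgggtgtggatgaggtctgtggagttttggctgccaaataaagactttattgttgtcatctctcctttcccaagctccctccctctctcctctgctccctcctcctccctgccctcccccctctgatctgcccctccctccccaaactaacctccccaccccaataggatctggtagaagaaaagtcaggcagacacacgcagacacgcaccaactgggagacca

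In the printed Postn window TATATA begins 28 bases before the start and overlaps TATAAA, which begins 26 bases before it. The printed Tnc window has TATATA 29 bases before the start. The Thbs2 window has a single TATANA match, on the other strand 126 bases before the start. Bgn has no TATANA match and CCGCCC beginning 34, 10 and 6 bases before the start, and Prelp has neither motif. The upstream Postn window, which is not printed, has neither motif. TATANA was found for 4 of the 7 genes (Postn, Tnc, Thbs2 and Ogn) and CCGCCC for 2 of the 7 (Tnc and Bgn), in any of their 9 windows. Ogn, which was not called and whose window is not printed, has TATANA matches beginning 229 (other strand) and 227 (gene strand) bases before the start. Sparc, also not called and not printed, has neither motif. Of all 32851 promoter windows, 24.7% hold TATANA and 35.7% hold CCGCCC. These shares count single windows, so they are not like the counts per gene, where Postn and Tnc have 2 windows each. These matches describe letters and are not evidence of binding.

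Among the proteoglycans, biglycan, which resembles decorin and binds collagen and the dystrophin-associated sarcoglycans, was the only one of the 5 that was called. Bgn had 9.56, 9.31 and 9.71 at P2, 9.30, 9.17 and 8.72 at P7, and 8.57, 8.99 and 8.69 at P14. The P2 arrays were above all others, though the lowest at P2 (9.312) barely exceeded the highest at P7 (9.299). P7 and P14 overlapped. Bgn was 1.71-fold lower at P14 than at P2 (-0.78 ± 0.20, adjusted p = 0.0205), while P7 against P2 gave -0.46 ± 0.20 (adjusted p = 0.347) and P14 against P7 gave -0.31 ± 0.20 (adjusted p = 0.531). Left-out arrays ended the P14 call in 4 of 9 cases (P2 replicate 1, P2 replicate 3, P14 replicate 1 and P14 replicate 3, adjusted p up to 0.099). A second, dimmer Bgn probe set differed between P14 and P2 by -0.26 ± 0.21 (adjusted p = 0.513), and the mean of both probe sets by -0.52 (adjusted p = 0.122), so the Bgn call rests on the brighter probe set.

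Osteoglycin, also called mimecan, is a secreted leucine-rich protein of connective tissue and bone. Ogn had 8.49, 8.47 and 9.08 at P2, 8.30, 8.70 and 8.31 at P7, and 7.82, 7.96 and 8.37 at P14. All P14 arrays were below all P2 arrays, while P7 overlapped with both. The change between P14 and P2 was -0.63 ± 0.21 (95% interval -1.09 to -0.17) and was not called after adjustment (adjusted p = 0.0779).

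Decorin, the proteoglycan of collagen fibrils that also binds growth factors and myostatin, had no called change. Dcn had 9.44, 9.66 and 10.04 at P2, 9.77, 10.15 and 9.58 at P7, and 9.99, 10.01 and 10.21 at P14. The ages overlapped, and the change between P14 and P2 was 0.36 ± 0.20 (95% interval -0.07 to 0.79, adjusted p = 0.299).

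Lumican, a keratan sulfate proteoglycan that controls fibril width, and PRELP, a proline- and arginine-rich protein that links basement membranes to collagen, were likewise not called. Lum had 6.38, 6.52 and 6.88 at P2, 6.44, 6.50 and 6.59 at P7, and 6.96, 6.63 and 6.65 at P14. Prelp had 6.88, 7.61 and 7.61 at P2, 7.13, 7.21 and 7.42 at P7, and 7.43, 7.47 and 7.61 at P14. In both genes the P14 arrays were all above the P7 arrays, but by little, and overlapped with the P2 arrays. The lowest P14 and highest P7 values were 7.428 and 7.424 for Prelp and 6.63 and 6.59 for Lum. The changes between P14 and P2 were 0.15 ± 0.18 for Lum (95% interval -0.23 to 0.54, adjusted p = 0.661) and 0.14 ± 0.20 for Prelp (95% interval -0.30 to 0.57, adjusted p = 0.742). A second Prelp probe set lay near the receptor level (mean 3.38) and is not read further.

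**Figure D2:**
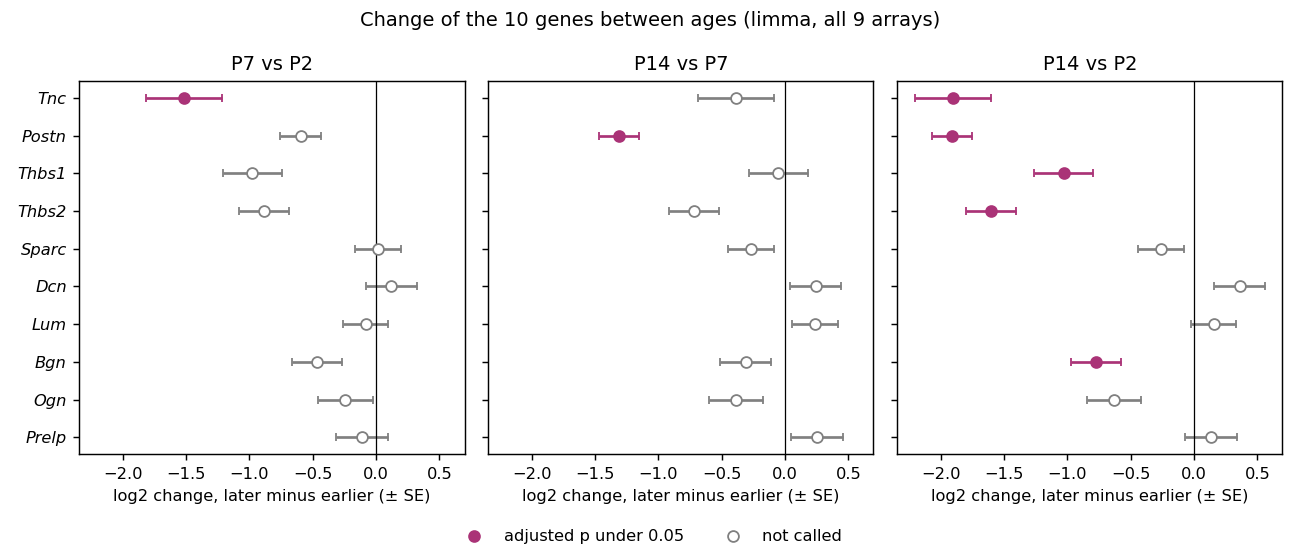
Log2 change with its SE (horizontal axis) for each of the 10 genes (rows), later minus earlier age, in 3 panels for P7 against P2, P14 against P7 and P14 against P2; filled points have an adjusted p below 0.05. Tnc is filled at P7 against P2 (-1.52), Postn at P14 against P7 (-1.31), and 5 genes at P14 against P2.

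Counted without a model, all P14 arrays lay below all P2 arrays for 7 of the 10 genes (the 5 called genes, Sparc and Ogn), which 12.6% of all genes did, and above them for none, beside 16.2% of all genes. All P7 arrays lay below all P2 arrays for 5 genes (Tnc, Postn, Thbs1, Thbs2 and, narrowly, Bgn), beside 7.9% of all genes, and above them for none, beside 7.3%. All P14 arrays lay below all P7 arrays for 3 genes (Postn, Thbs2 and Sparc), beside 9.13%. They lay above them for 2 (Lum and Prelp, each by little), beside 14.8%.

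Whether the total change differed between the 5-day and the 7-day interval was tested as the later change minus the earlier one. The changes were not divided by days, so the test does not compare daily pace. None of the 10 genes was called by limma, beside 0.194% of all genes (0.158% lower and 0.0361% higher), and 3 had an unadjusted p below 0.05, beside 8.12% of all genes. Postn had a difference of -0.72 (adjusted p = 0.515), its larger change being the later one. Tnc and Thbs1 had differences of 1.13 (adjusted p = 0.608) and 0.92 (adjusted p = 0.593), their larger change being the earlier one.

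Dcn was subtracted on the same array to set the genes against one another, and these pairs were chosen after the values were seen, so they are a description. With the P2 mean set to 0, Postn relative to Dcn was 0.33, -0.01 and -0.33 at P2, -0.66, -0.86 and -0.63 at P7, and -2.21, -2.24 and -2.35 at P14. The P14 arrays were close together, at -2.27 ± 0.07 (SD, n = 3). Thbs2 relative to Dcn was -1.01 ± 0.33 at P7 and -1.96 ± 0.07 at P14, and Tnc was -1.63 ± 0.72 and -2.26 ± 0.07. Ogn relative to Dcn did not overlap between ages, at -0.36 ± 0.11 at P7 and -0.99 ± 0.17 at P14, although Ogn itself did. Such a difference shows that a gene and Dcn changed unequally, and by itself does not say which of the pair moved. In whole muscle, fewer cells of a type and less RNA per cell cannot be told apart.

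**Figure D3:**
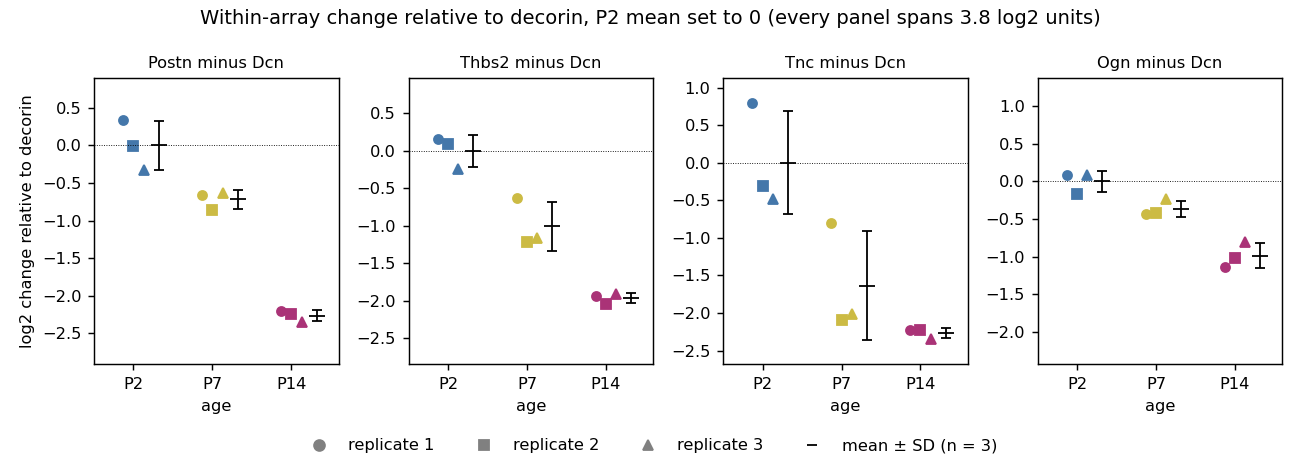
Log2 difference from Dcn on the same array (vertical axis), with the mean of the P2 arrays set to 0, for Postn, Thbs2, Tnc and Ogn at P2, P7 and P14 (horizontal axis); points are replicates 1 to 3 and bars the mean ± SD. The P14 means are -2.27 for Postn, -1.96 for Thbs2, -2.26 for Tnc and -0.99 for Ogn.

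Across the 9 arrays, where genes that change with age correlate through it, the closest pairs among the 10 genes were Postn with Thbs2 (r = 0.93), Tnc with Thbs2 (r = 0.90), and Tnc with Thbs1, Tnc with Bgn and Thbs2 with Bgn (r = 0.89 each). With the mean of each age removed, the largest correlations were those of Dcn with Ogn (r = 0.87), Sparc with Dcn (r = 0.73), Tnc with Prelp (r = -0.73) and Sparc with Ogn (r = 0.71). Dcn and Ogn lay on the same side of their age means on all 9 arrays. Sparc lay on that side too, except on P7 replicate 1 and P14 replicate 2. The largest deviation above the age mean was on P2 replicate 3 for Dcn (0.32), Ogn (0.40) and Sparc (0.34). These pairs were picked for their size, so they are a description. Tnc and Prelp lay on opposite sides of their age means on all P2 arrays and on P7 replicates 1 and 3. On P7 replicate 2 and all P14 arrays they lay on the same side. On 6 of the 9 arrays, 8 of the 10 genes lay on the same side of their age means. These were P2 replicate 2 (below, by 0.14 on average over the 10 genes), P2 replicate 3 (above, by 0.18), P7 replicate 3 (below, by 0.19), P14 replicates 1 and 2 (below, by 0.05 each) and P14 replicate 3 (above, by 0.10). Postn departed little from its age mean, by at most 0.17 on any array.

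Of 20 other matricellular genes measured, 4 fell between P14 and P2 and 1 rose, with a median change of -0.01. Ccn3, a growth-regulating CCN protein, was 2.87-fold lower at P14 than at P2 (-1.52 ± 0.17, adjusted p = 5.68e-05). Thbs3, a pentameric thrombospondin, was 2.17-fold lower (-1.12 ± 0.17, adjusted p = 0.000686). Tnxb, tenascin-X, which bridges collagen fibrils, was 1.63-fold lower (-0.71 ± 0.18, adjusted p = 0.0174), a call lost without any of 3 arrays. Smoc1 was the fourth to fall (adjusted p = 0.0435). In the opposite direction, Ccn2, connective tissue growth factor, was 1.61-fold higher at P14 than at P2 (0.68 ± 0.16, adjusted p = 0.0107) and 1.74-fold higher than at P7 (0.80 ± 0.16, adjusted p = 0.0129), the P14 against P2 call being lost without P14 replicate 3 and the P14 against P7 call without any of 4 arrays. Ccn2 had 5.81, 5.91 and 5.94 at P14, against 5.14, 5.14 and 5.33 at P2.

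Of 12 other small leucine-rich proteoglycan genes measured, 3 rose between P14 and P2 and 1 fell, with a median change of 0.25. Chad, chondroadherin, which binds collagen and integrins, was 2.38-fold higher at P14 than at P2 (1.25 ± 0.27, adjusted p = 0.00884) and 2.61-fold higher than at P7 (adjusted p = 0.0148), the second call being lost without any of 4 arrays. Podn, podocan, was 1.60-fold higher at P14 than at P2 (0.68 ± 0.18, adjusted p = 0.0247), a call lost without any of 5 arrays. Aspn, asporin, a close relative of decorin and biglycan, was 2.55-fold lower (-1.35 ± 0.18, adjusted p = 0.00019).

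Several of these genes lie side by side on chromosomes, which the RefSeq gene order shows. In the run Ecm2, Aspn, Omd and Ogn, Aspn fell to 7.45, 7.55 and 7.61 at P14, against 8.83, 8.93 and 8.89 at P2, while its neighbour Ecm2 rose to 6.25, 6.17 and 6.33 at P14, against 4.52, 5.64 and 5.43 at P2. Ecm2 was 2.08-fold higher (1.06 ± 0.25, adjusted p = 0.0137), and that call was lost without P14 replicate 1 or P14 replicate 3. In the run Dcn, Lum, Kera and Epyc, Kera, the gene of keratocan, differed by 1.01 ± 0.37 and was not called (adjusted p = 0.0956), and Epyc averaged below the receptor level. In the run Optc, Prelp and Fmod, no gene was called, and Fmod, fibromodulin, differed by 0.46 ± 0.24 (adjusted p = 0.277).

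**Figure D4:**
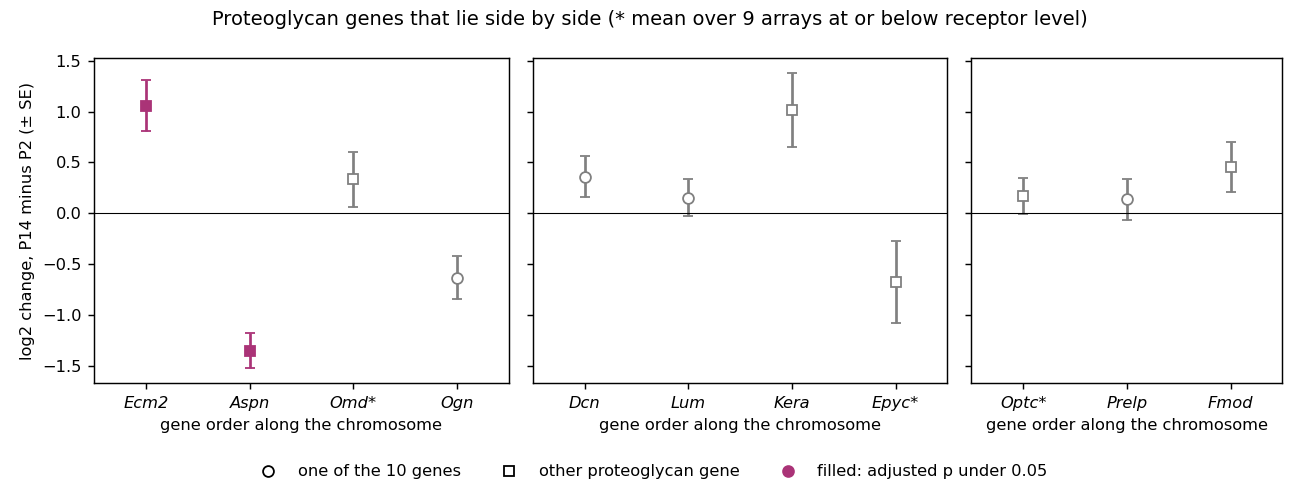
Log2 change between P14 and P2 with its SE (vertical axis) for leucine-rich proteoglycan genes in their order along 3 chromosomes (horizontal axis), with circles for the genes among the 10, squares for other proteoglycan genes and filled symbols for an adjusted p below 0.05. Ecm2 (1.06) and its neighbour Aspn (-1.35) are filled on opposite sides of 0.

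Over these lists and 5 lists of genes that work with the 10, 4 of 108 genes rose and 19 fell between P14 and P2, beside 6.63% and 4.4% of all genes. Of 10 fibrillar collagen partners, 4 fell, none rose and all 10 had a negative change (median -0.67). Col12a1, a collagen that decorates fibril surfaces, was 3.40-fold lower (-1.77 ± 0.25, adjusted p = 0.000422), Col14a1, of the same class, 2.39-fold lower (-1.26 ± 0.20, adjusted p = 0.00115), and Col5a2, which helps to set fibril width, 2.16-fold lower (-1.11 ± 0.18, adjusted p = 0.00121). Col5a1 was the fourth to fall, and its call was lost without any of 8 arrays. Of 17 receptors of the 10 proteins, 3 fell and none rose. Itga8, an integrin subunit that pairs with the beta-1 chain to bind tenascin-C, was 1.91-fold lower at P14 than at P2 (-0.93 ± 0.20, adjusted p = 0.0071), whereas the calls of Itgb3 and Itga5 were each lost without any of 5 arrays.

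Among 24 genes of glycosaminoglycan chain synthesis, 4 fell and none rose, including Papss1, which makes the sulfate donor (-0.85, adjusted p = 0.00858), and Chsy1, which extends chondroitin sulfate (-0.68, adjusted p = 0.0177). Without P14 replicate 1 the Papss1 call was lost, and the Chsy1 call without any of 3 arrays. None of 12 transforming growth factor beta ligands, receptors and carriers was called by limma, and 3 of them were lower at an unadjusted p below 0.05 (median -0.25). Of 13 proteases, 3 fell: Mmp13, a collagenase whose P14 mean of 2.68 was under the receptor level (adjusted p = 0.00858), and Mmp14 and Mmp9, whose calls were each lost without any of 5 arrays. Between P7 and P2, limma called none of the 108 genes of these 7 related lists, beside 0.329% of all genes. At an unadjusted p below 0.05 there were 4 higher and 17 lower, beside 12.8% of all genes in either direction. Over P14 against P7, the called genes were Ccn2, Chad and Podn, which rose, and Ccn3, which fell (-0.74, adjusted p = 0.0367). These were 3 higher and 1 lower of 108, beside 1.72% higher and 0.703% lower of all genes. The Podn and Ccn3 calls over this interval were each lost without any of 6 arrays.

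**Figure D5:**
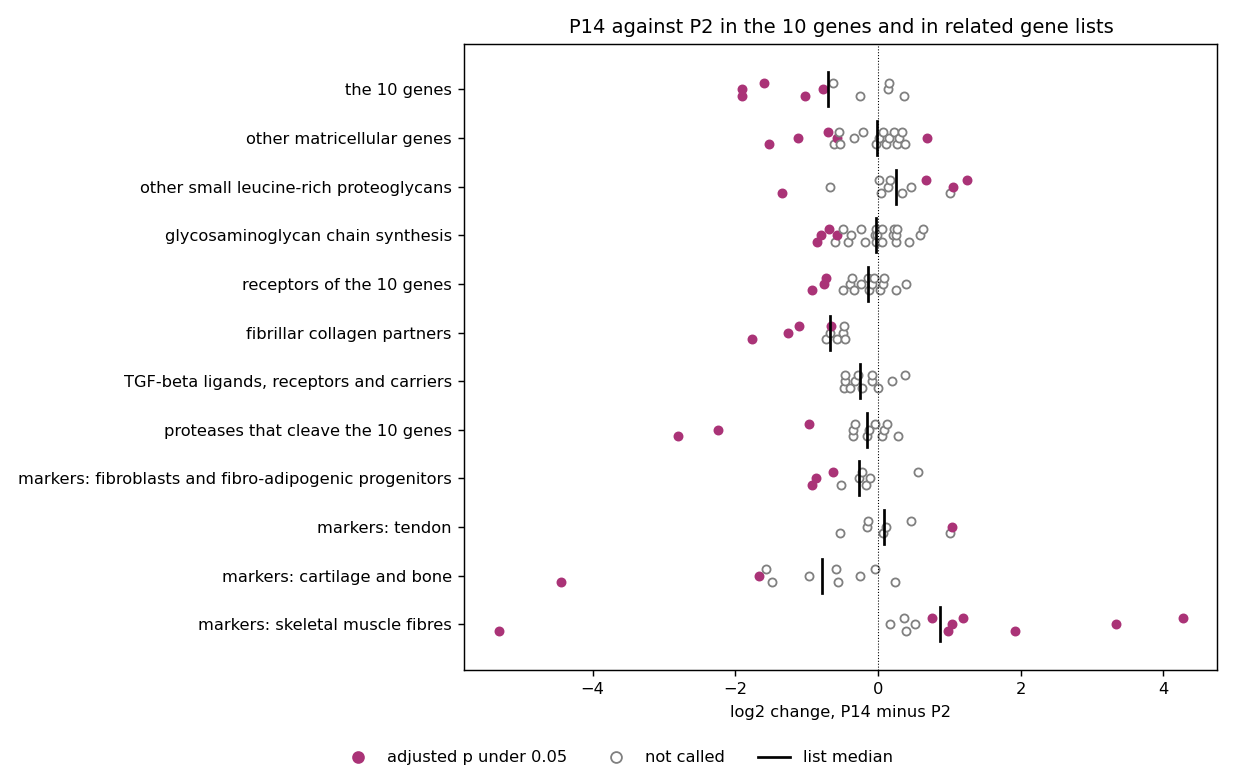
Log2 change between P14 and P2 (horizontal axis) of each measured gene in the 10 genes, 7 related lists and 4 lists of cell type markers (rows); filled points have an adjusted p below 0.05 and the vertical bars are list medians. The medians are -0.70 for the 10 genes, -0.67 for the collagens and 0.25 for the other small leucine-rich proteoglycans.

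Markers of the cells that could hold these transcripts also moved with age. Of 9 fibroblast and fibro-adipogenic progenitor markers measured, all above the receptor level at every age, 3 fell between P14 and P2 (Tcf7l2, Osr1 and Pdgfra, of which the Pdgfra call was lost without any of 8 arrays) and none rose. The log2 of their summed intensity covered 9.99–10.53 (P2), 9.97–10.05 (P7) and 9.79–10.005 (P14). Tendon markers (8 measured) covered 9.05–9.55 (P2), 8.66–9.65 (P7) and 9.43–9.59 (P14), with 1 rising (Cilp2) and none falling. Pericyte and smooth muscle markers (8 measured) covered 10.03–10.35, 10.62–10.64 and 11.14–11.30 at these ages, with 4 rising and none falling. Between P14 and P2, 2 of the 8 (Cspg4 and Myh11) had a negative change. At an unadjusted p below 0.05 (limma), 5 were higher and 1 lower. Endothelial markers (8 measured) covered 8.92–9.59 (P2), 9.35–9.73 (P7) and 9.62–9.77 (P14), with a median change of 0.50 between P14 and P2. Of these, 1 rose (Esam, a call lost without any of 5 arrays) and 5 were higher at an unadjusted p below 0.05. None of 8 macrophage or 4 Schwann cell markers was called by limma, with 1 macrophage marker lower at an unadjusted p below 0.05. The part of these shifts in the changes of the 10 genes was not tested.

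Cartilage and bone markers, 10 measured, differed between arrays of the same age. Their log2 summed intensity was 8.98, 9.33 and 7.75 in the P2 arrays, 8.48, 8.30 and 7.37 in the P7 arrays, and 7.19, 7.16 and 7.13 in the P14 arrays. Ibsp, bone sialoprotein, had 8.08, 6.54 and 5.90 at P2, 6.65, 5.85 and 2.52 at P7, and 2.12, 2.46 and 2.62 at P14. It fell between P14 and P2 (adjusted p = 0.00184), as did Acan, aggrecan, and at P14 Acan, Ibsp, Sp7, Matn1 and Matn3 averaged at or below the receptor level. The markers peaked on different P2 arrays: Col2a1 (7.81) and Acan (5.88) in replicate 2, Ibsp and Alpl (4.89) in replicate 1, and Bglap (3.97) in replicate 3. Replicate 2, the P2 array with the highest summed signal, had the lowest Tnc (6.80), Postn (10.41), Thbs1 (6.11) and Bgn (9.31) of its age. Thbs2 was lowest in replicate 1 (7.71). Replicate 1, highest in Ibsp and Alpl, had the highest Tnc (7.67), Postn (10.52) and Thbs1 (7.10) of its age. Bgn (9.71) and Thbs2 (7.91) were highest in replicate 3. Among these 5 called genes at P7, the order of the arrays in the summed signal was also their order in Tnc, Thbs2 and Bgn. Replicate 3 had the least of that signal and the lowest Postn (9.71), while Thbs1 was lowest in replicate 2 (5.59). The part of this signal in the changes of the 10 genes was not tested.

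For each of the 10 genes, the genes with the most similar profile over the 9 arrays were found by Pearson correlation, which again includes the differences between ages. For Postn these were Plagl1 (r = 0.995), an imprinted zinc finger gene, Gatm (r = 0.992), which makes the creatine precursor, and Dlk1 (r = 0.989), an imprinted membrane protein of immature cells. Dlk1 was 6.92-fold lower at P14 than at P2 (adjusted p = 3.33e-07) and Plagl1 4.84-fold lower (adjusted p = 1.11e-06). For Thbs2 they were Myh3 (r = 0.983), the embryonic myosin heavy chain, Col5a2 (r = 0.982) and Vim (r = 0.982), vimentin. Myh3 was 10.6-fold lower at P14 than at P2 (adjusted p = 1.03e-05) and Vim 2.04-fold lower (adjusted p = 0.00182). The nearest gene to Tnc among protein-coding ones was Cemip2 (r = 0.980), to Bgn Egfl6 (r = 0.983), to Thbs1 Ppp4r3b (r = 0.974), to Ogn Tia1 (r = 0.955), to Sparc Selenon (r = 0.959), to Lum Ccs (r = 0.923) and to Prelp Pex7 (r = 0.939). For Dcn it was Tmem230 (r = 0.983).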

How the data were processed

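Total RNA of mouse hindlimb muscle was hybridised to 9 arrays, 3 each at P2, P7 and P14. The authors deposited 1 value for each of 41345 probe sets and array. RMA and Partek are named for these values, per the submitters' processing notes, without versions; the values were read as the log2 intensities that RMA gives, as deposited by the authors, and the base is not stated. Raw probe values were not used here, so the precision is limited by the number of arrays. Probe sets with a single gene symbol (23521) were kept and the brightest probe set of each gene was taken, which left 22180 genes.

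A model with 1 mean per age was fitted to all genes and all 9 arrays in limma 3.58.1 (R 4.3.3), with eBayes and Benjamini-Hochberg adjustment over all genes; "called" means an adjusted p below 0.05. The procedure was tested on simulated data. Alternatives varied the gene filter, centring, normalization, probe set rule, variance trend, a covariate for Xist level and the arrays used. The members and gene lists were chosen with earlier results of these data known. Beyond the 10 genes, the text names up to 4 called genes per list by adjusted p, the neighbours in gene runs, the 3 genes most correlated with a member, and markers; Smoc1 was added after its value was seen. Arrays of equal replicate number showed no sign of pairing (correlation of deviations from the age means -0.03 to 0.06), which cannot exclude a shared origin. RefSeq (GRCm38.p6) gave promoters, gene order and names.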

Additional observations from a re-analysis of the deposited data

Results flagged for a closer look

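The second Bgn probe set, which entered none of the comparisons above except as a check on the first, carried clear signal: it averaged 6.39 over the 9 arrays, above the receptor level of 3.23. Its values were 6.52, 6.15 and 6.84 at P2, 6.59, 6.61 and 6.03 at P7, and 6.23, 6.31 and 6.21 at P14. The ages overlapped, whereas the brighter Bgn probe set had its P2 arrays above all others, though narrowly (lowest at P2 9.312, highest at P7 9.299).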

How the results depend on the processing

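For the 10 genes, 465 of 510 values in 17 alternatives kept their direction and side of the threshold; 17 lost a call, 11 gained one and 17 changed sign, all of the last uncalled. The P14 against P2 calls of Postn, Thbs2 and Tnc and the P14 against P7 call of Postn held in all 17. Thbs1 (P14 against P2) held in 15, Bgn in 12 and Tnc (P7 against P2) in 7. Ogn was called at P14 against P2 with only genes above the receptor level (adjusted p = 0.0499), cyclic loess (0.0144) and a variance trend (0.0425). The cause was not tested for any of these.

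The members called were 1 at P7 against P2, but 2 with the receptor-level filter, 3 with the trend, 0 with the mean of the probe sets, with Xist as covariate or with only the 2 ages compared, and 0 to 2 leaving out 1 array. At P14 against P7 they were 1, but 2 with the filter, loess or trend, and 1 to 2 leaving out 1 array, and at P14 against P2 5, with 3 to 5 leaving out 1 array. Over all genes, 73 were called at P7 against P2, but 171 with the filter, 159 with the trend, 35 with Xist, 12 with only the 2 ages compared and 11 to 206 leaving out 1 array. At P14 against P7, 538 were called, but 1051 with only the 2 ages compared and 214 to 794 leaving out 1 array. Leaving out 1 array gave 1373 to 2611 calls at P14 against P2 (2447), 845 to 2139 for any change (1827) and 18 to 44 for the difference between intervals (43; 24 with Xist). With the replicate number as a block, 61, 458 and 2320 genes were called at P7 against P2, P14 against P7 and P14 against P2, and the members called stayed at 1, 1 and 5. Probe sets tested separately, an alternative chosen after seeing the data, gave 2456 at P14 against P2.

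Signs changed at P7 against P2 for Sparc (0.01; -0.0122 centred, -0.0697 with loess, -0.0531 with Xist, -0.0809 to 0.18 leaving out 1 array), Dcn (0.12; -0.0022 with loess, -0.0386 to 0.28 leaving out 1 array), Lum (-0.08; -0.19 to 0.0619) and Prelp (-0.11; -0.36 to 0.00966), at P14 against P2 for Prelp (0.14; -0.0372 with loess, -0.11 to 0.26) and at P14 against P7 for Thbs1 (-0.05; -0.20 to 0.10).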
